A study of Drosophila melanogaster with 2 samples.

Results

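The 9 genes described here, Eip74EF, br, Eip93F, Eip78C, Hr3, Hr4, Hr39, ftz-f1 and Kr-h1, encode transcription factors of the ecdysone response of Drosophila melanogaster. Eip75B is a gene of the same kind that was left out of the set. The members were taken by symbol from the Ensembl release 115 annotation and are 9 of its 13945 protein-coding genes on the 6 assembled arms. Every listed region for the transcription factor Sage whose summit, the position of highest signal, lay in a member gene or within 2 kb of it was assigned to that gene. In the submitters' thresholded list these were 25 of 3292 regions on the arms.

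Chromatin immunoprecipitation with sequencing (ChIP-seq) had been done with an anti-GFP antibody on intact larvae at the wandering stage of the third instar, males and females together, of unknown age. The larvae came from a sage-GFP line, in which Sage carries GFP at its C-terminus. There was 1 group with 2 samples, biological replicates 3 and 4, so the values below are descriptions and no comparison between conditions was made. What limits the group as a model is that it was 1 transgenic line, that its chromatin came from all tissues of the larva at once, and that binding in a few cells cannot be told apart from weak binding in many.

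Ecdysone is the steroid hormone whose pulses time larval moults and metamorphosis. Bound by a receptor made of EcR and Usp, it first switches on a small set of early genes, many of which encode transcription factors, and these in turn switch on later genes and shut down earlier ones. In the salivary gland of the wandering larva this cascade was first seen as puffs on the giant polytene chromosomes, and several of these genes are named for the position of their puff. Sage is a basic helix-loop-helix protein known from the salivary gland, where it acts together with the forkhead protein Fkh. Proteins of its class bind E-boxes, sites with the letters CANNTG.

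Each replicate came with its own list of about equal length (29999 regions for replicate 3, 30000 for replicate 4), a pooled list had 30000 regions, and the thresholded list, called the IDR list after the irreproducible discovery rate, had 3312, of which 20 were mitochondrial. The pooled list was deposited as peaks together with background. Its median −log10 q-value was 0.445, with 0.429 in replicate 3 and 0.42 in replicate 4, against 2.11 in the IDR list. Many regions of these long lists are thus weak, and a region below the IDR threshold does not by itself show binding. The IDR list held the 3312 strongest regions of the pooled list, so a place in it does not show that a region ranked alike in both replicates, and each replicate's own 3312 strongest regions are given beside it. Signal is the submitters' value for a region, on a scale that was not given, and is used only within 1 list, where rank 1 is the strongest region. The lowest signal in the IDR list was 95.7 and its median on the arms was 135. The lists hold no read counts, so the depth of each replicate is unknown and no counting error can be given. Nor can the labelled whole larva be checked against marker genes, because the lists hold no expression.

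The DNA under 9 of the 25 summits is shown first, because it shows how unlike the bound stretches are. They are the strongest summits of Eip74EF, Eip78C, Hr4, Hr39 and Kr-h1, the next strongest of Hr4, another pair at Eip74EF with motif matches, and the br summit with no overlapping region in replicate 3. Each window runs 50 bp to either side of a summit, 101 bp in all, and is written 5′ to 3′ on the strand of the gene, with coordinates on dm6 and sequence from the RefSeq Release 6 genome. Capitals mark matches to the motifs searched (the E-box CANNTG, the nuclear receptor hexamer AGGTCA, the site CAAGGTC of Ftz-f1 and Hr39, the forkhead motif TGTTTAC, the GAGA factor motif GAGAG, the BEAF core CGATA and the CREB core TGACGT) on either strand, so that CTCTC is GAGAG read on the other strand.
Eip74EF promoter, chr3L:17619481-17619581, minus strand: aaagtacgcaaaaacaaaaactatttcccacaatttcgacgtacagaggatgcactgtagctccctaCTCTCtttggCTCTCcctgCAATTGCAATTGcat
Eip74EF intron nearest the 5′ end, chr3L:17611548-17611648, minus strand: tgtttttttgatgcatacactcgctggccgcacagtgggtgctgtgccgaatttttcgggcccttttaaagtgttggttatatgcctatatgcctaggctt
Eip74EF intron nearest the 3′ end, chr3L:17567058-17567158, minus strand: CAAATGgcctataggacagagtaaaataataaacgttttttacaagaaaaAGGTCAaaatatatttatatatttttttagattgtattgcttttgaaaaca
br intron, chrX:1616921-1617021, plus strand: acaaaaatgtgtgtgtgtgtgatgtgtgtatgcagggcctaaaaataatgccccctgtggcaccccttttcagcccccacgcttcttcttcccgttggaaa
Eip78C intron, chr3L:21253855-21253955, plus strand: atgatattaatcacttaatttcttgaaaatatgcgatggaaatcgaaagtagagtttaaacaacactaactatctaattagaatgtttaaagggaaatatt
Hr4 intron, strongest summit, chrX:1951880-1951980, plus strand: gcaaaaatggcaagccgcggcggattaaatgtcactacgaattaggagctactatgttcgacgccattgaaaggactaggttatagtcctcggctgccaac
Hr4 intron, next strongest summit, chrX:1947681-1947781, plus strand: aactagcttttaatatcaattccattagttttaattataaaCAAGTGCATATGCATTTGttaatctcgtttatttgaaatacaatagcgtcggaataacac
Hr39 intron, chr2L:21250752-21250852, plus strand: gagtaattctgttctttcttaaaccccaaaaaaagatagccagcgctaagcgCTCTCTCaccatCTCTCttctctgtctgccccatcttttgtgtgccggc
Kr-h1 intron, chr2L:6088701-6088801, plus strand: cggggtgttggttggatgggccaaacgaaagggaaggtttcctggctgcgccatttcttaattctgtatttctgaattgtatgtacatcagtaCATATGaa

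The windows differed in kind. The next strongest summit of Hr4 held 3 E-boxes end to end, of which the middle one was CATATG, in an AT-rich window. The promoter of Eip74EF held a doubled CAATTG and, just before it, a pair of CTCTC. The strongest summit of the whole set, in Eip78C, and the strongest of Hr4 had no match to any of the 7 motifs. The Hr39 window, in a stretch rich in C and T, had 3 matches to GAGAG, of which 2 overlapped, and no E-box. The intronic summit of br held a run of TG repeats and had no match.

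Sage regions of the IDR list were found at 8 of the 9 genes, and Eip93F was the exception. Over all protein-coding genes the share was 22.9%. The members are long, however, between 13.9 and 89.7 kb, and among the 1977 protein-coding genes of 10 kb or longer the share with such a summit was 45.3%. All members but Kr-h1 were 22.4 kb or longer, so the genes above the 10 kb limit are not matched to them in length. Hr4 had 8 summits, Eip74EF had 7, br and Hr39 had 3 each, and Eip78C, Hr3, ftz-f1 and Kr-h1 had 1 each. Hr4 and Eip74EF together thus held 15 of the 25. At least 3 summits were found at 4 of the 9 members, against 13.4% of the genes of 10 kb or longer. The 9 genes with their flanks cover 478.1 kb and held 0.523 IDR summits per 10 kb, against 0.276 for genes of 10 kb or longer and 0.246 for the arms as a whole. The density was uneven, at 1.14 for Hr4 and Hr39, 1.08 for Eip74EF, 0.559 for Kr-h1 and 0.32 for br. Below the value of the long genes were Hr3 (0.268), Eip78C (0.228), ftz-f1 (0.183) and Eip93F (0). In the pooled list the densities were 5.81 regions per 10 kb at the members, 2.62 at the long genes and 2.24 on the arms.

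**Figure D1:**
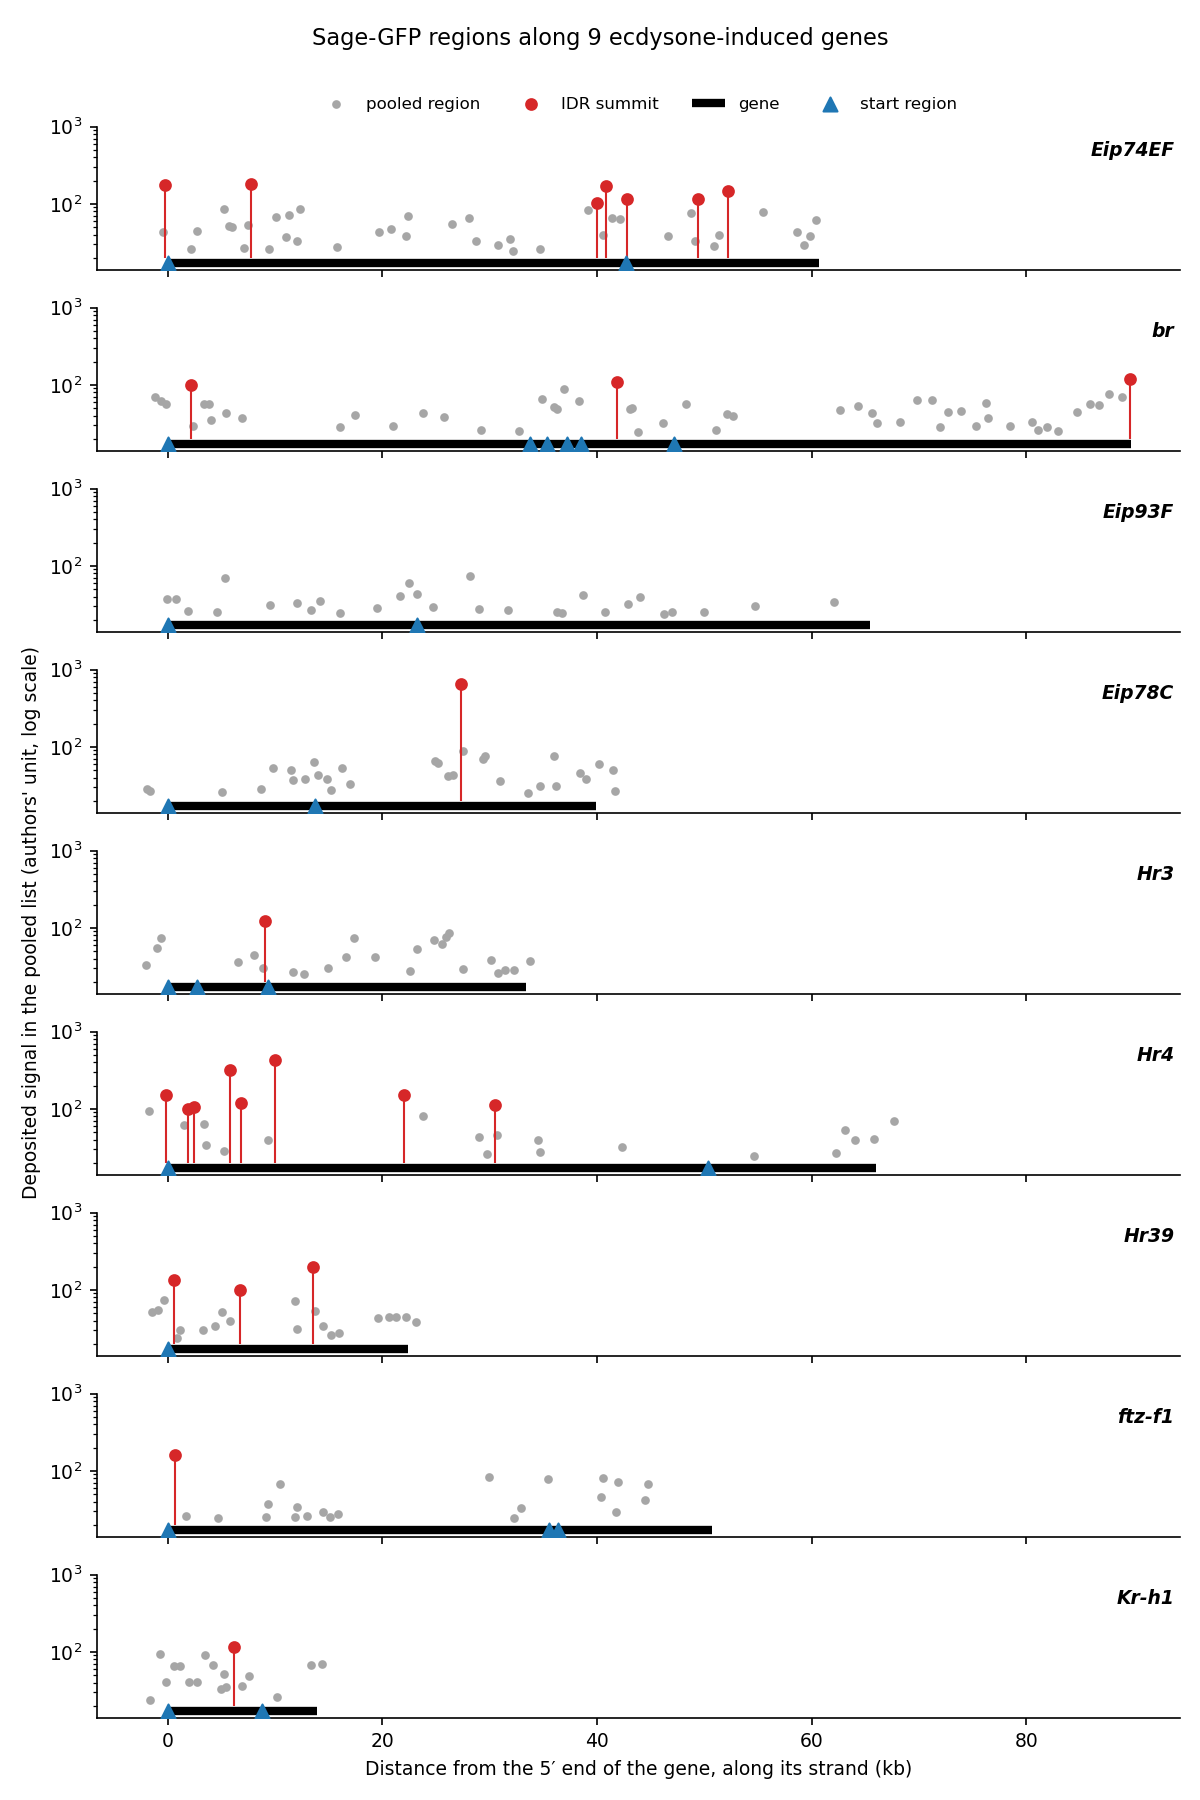
Position of Sage-GFP regions along the 9 genes, each drawn 5′ to 3′ from its own start (horizontal axis, kb; black bar, the gene; blue triangles, start regions), with the deposited signal of the pooled list on a log axis. Red points with stems are the 25 IDR summits, of which Hr4 has 8 and Eip74EF 7, and grey points are the weaker regions of the pooled list; Eip93F has grey points only.

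The early gene Eip74EF (FBgn0000567, chromosome 3L, 17558672 to 17619325, minus strand) encodes ETS-domain transcription factors, and its isoforms start at 2 well separated places. Both starts had an IDR summit. The summit 206 bp upstream of the outer start, used by 3 transcripts, had a signal of 174 and rank 945 in the IDR list, with rank 875 in replicate 3 and rank 553 in replicate 4. The summit 106 bp inside the inner start, 42.7 kb into the gene, had a signal of 116 and rank 2267. It stood far lower in replicate 3 (rank 7030) than in replicate 4 (rank 1864).

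The other 5 summits of Eip74EF were intronic. The strongest lay 7727 bp inside the outer start, with a signal of 183 and rank 851, and it ranked 1129 in replicate 3 and 772 in replicate 4. A pair lay 2712 and 1910 bp upstream of the inner start with signals of 104 and 168, and another pair lay 6363 and 9212 bp downstream of it with signals of 115 and 145. The nearer member of the upstream pair ranked 772 in replicate 3 and 1694 in replicate 4, and the farther one 5597 in replicate 3 and 2936 in replicate 4. The summit at 6363 bp ranked 1626 in replicate 3 and 4365 in replicate 4. The summit at 9212 bp ranked 831 in replicate 3 and 1997 in replicate 4, and its window holds the only AGGTCA among the 25, the hexamer that nuclear receptors bind. Of these 5 intronic summits, the 3 at 1910, 6363 and 9212 bp ranked stronger in replicate 3, and the other two ranked stronger in replicate 4.

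The early gene br (FBgn0283451, chromosome X, 1575132 to 1664869, plus strand) encodes the BTB zinc-finger proteins of the Broad complex, which are needed for the larva to become a pupa. It is the longest member and had 3 IDR summits, all in the weaker part of the list. The gene Mur2B on the other strand spans all 3. The first lay 2140 bp downstream of the outermost start, with a signal of 99.6, and ranked 4687 in replicate 3 and 1212 in replicate 4. The second, 41.8 kb into the gene, had a signal of 108 and no overlapping region in replicate 3, but rank 867 in replicate 4. A start of Mur2B, at 1184 bp, was nearer to it than any start of br.

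The third summit of br fell in its 3′ UTR, 252 bp from the start of the next gene, dor, so that it can be read as a promoter region of dor as well. Its signal was 118 and its rank 2181, with rank 4576 in replicate 3 and 1932 in replicate 4. The start region from which 9 of the 16 br transcripts are read, 37.2 kb into the gene, had no IDR summit. It had a pooled region with a signal of 89.4 at rank 3722, close below the threshold, and ranked 4857 in replicate 3 and 2238 in replicate 4. No br region was among the strongest 3312 of replicate 3, against 4 among those of replicate 4.

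Eip93F (FBgn0264490, chromosome 3R, 21949114 to 22014539, plus strand) encodes a pipsqueak-domain protein that directs the adult programme and the death of the larval salivary gland. It had no region in the IDR list or among the strongest 3312 regions of either replicate. The pooled list held 29 regions there, 4.18 per 10 kb. The strongest had a signal of 74.7 and rank 5155 and lay 4922 bp inside the inner start. The best rank at the gene was 5269 in replicate 3 and 6917 in replicate 4. Both start regions had a pooled region, with signals of 37.7 at the outer and 59.6 at the inner start.

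Eip78C (FBgn0004865, chromosome 3L, 21226609 to 21266503, plus strand) encodes a nuclear receptor of the Rev-erb type and carried the strongest summit of the set. Its signal was 652 and it ranked 48 in the IDR list, 47 in replicate 3 with a signal of 268, and 46 in replicate 4 with a signal of 383. None of the other 24 member summits ranked so nearly alike in both replicates. It lay in an intron, 13558 bp downstream of the inner start, and its region was 312 bp wide, narrower than the median of 390 bp. The small gene CG43218 inside Eip78C has its start 4115 bp away. Neither start region of Eip78C had an IDR summit, and the outer one had no region in the pooled list.

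Hr3 (FBgn0000448, chromosome 2R, 10203995 to 10237348, minus strand) encodes an orphan receptor of the ROR type, which shuts down early genes and switches on ftz-f1 in the prepupa. Its 1 summit lay 279 bp upstream of the innermost of 3 start regions, used by 3 transcripts, within the overlapping gene CG12912. The signal was 124 at rank 1991. The region ranked 7967 in replicate 3 with a signal of 30.2, and 1295 in replicate 4 with a signal of 92.9. It was thus well inside the strongest 3312 of replicate 4 and far outside those of replicate 3. Its window held an E-box with the letters CAGCTG.

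Hr4 (FBgn0264562, chromosome X, 1941940 to 2007956, plus strand) encodes a nuclear receptor that represses early genes and, in the prothoracic gland, limits hormone synthesis. It had the most summits of the 9, all in the 30.5 kb that follow its outer start or just upstream of it. The strongest lay 9990 bp inside the outer start with a signal of 424, rank 119 in the IDR list, 130 in replicate 3 and 134 in replicate 4. The next lay 5791 bp inside, with a signal of 317 and rank 256, and ranked 156 in replicate 3 and 385 in replicate 4. Both regions were narrow, at 228 and 236 bp.

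A summit 179 bp upstream of the outer start of Hr4, from which 7 of its 9 transcripts are read, had a signal of 153 and rank 1287. It ranked 3305 in replicate 3, just inside the strongest 3312, and 1025 in replicate 4. The other 5 summits were intronic with signals between 99.7 and 152. Those 1890, 6794 and 21978 bp inside the outer start were strong in both replicates, with ranks of 2054, 1551 and 1249 in replicate 3 and of 3163, 3066 and 1878 in replicate 4. The one at 2464 bp ranked 6280 in replicate 3 and 2151 in replicate 4. The one farthest inside, 30.5 kb from the outer start, differed most between the replicates, at rank 14339 in replicate 3 and 1782 in replicate 4. The pseudogene CR46447 inside Hr4 has a start nearer than any of Hr4 to 4 of the 8 summits, at distances of 2550 to 17946 bp. The inner start region of Hr4, 50.4 kb into the gene, had no region within 1 kb in any of the 4 lists.

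Hr39 (FBgn0261239, chromosome 2L, 21237250 to 21259675, plus strand) encodes a nuclear receptor of the same family as Ftz-f1. Its 3 summits were intronic, all held GAGAG, none held an E-box, and each was far lower in replicate 3 than in replicate 4 or had no overlapping region there. The strongest, 13552 bp into the gene, had a signal of 196 and rank 752, and ranked 3397 in replicate 3 and 299 in replicate 4. A start of the next gene downstream, l(2)k14505, was nearer to it, at 10366 bp. The one 623 bp inside the single start had a signal of 134 and rank 1702, with no overlapping region in replicate 3 and rank 847 in replicate 4. A start of the microRNA gene mir-9374, at 428 bp, was nearer to it than that of Hr39. The strongest replicate 3 region of the gene lay 1165 bp inside the start, at rank 2103, and did not overlap an IDR region. The weakest summit, 6723 bp into the gene, had a signal of 99.3 and rank 3104, with rank 13606 in replicate 3 and 2699 in replicate 4. A start of mir-9374, at 5634 bp, was again nearer to this summit.

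ftz-f1 (FBgn0001078, chromosome 3L, 18750607 to 18801309, minus strand) encodes the receptor that makes prepupal tissues competent for the next ecdysone pulse. Its 1 summit lay in the 5′ UTR, 650 bp inside the outer start, within an overlapping non-coding gene (lncRNA:CR45939). The signal was 162 at rank 1116, with rank 845 in replicate 3 and 1940 in replicate 4. The inner starts, 35.6 and 36.4 kb into the gene, shared 1 pooled region with a signal of 78.3 at rank 4759, which was below the IDR threshold.

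Kr-h1 (FBgn0266450, chromosome 2L, 6082603 to 6096498, plus strand) encodes a zinc-finger protein best known as the main response gene of juvenile hormone, which holds back metamorphosis. Its 1 summit, 2661 bp upstream of the inner start, had a signal of 114 and rank 2345, and ranked 3585 in replicate 3 and 2011 in replicate 4. At the outer start the replicates differed. Replicate 3 had a region 702 bp upstream with a signal of 70.8 at rank 1274, while the best region within 1 kb of that start ranked 11328 in replicate 4. In the pooled list its signal was 93.4 at rank 3460, just below the threshold. Of the 9 genes it had the most pooled regions for its length, 10.1 per 10 kb.

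Across the set, 5 of the 9 genes (Eip74EF, Hr3, Hr4, Hr39 and ftz-f1) had an IDR summit within 1 kb of one of their annotated starts. The share was 14.4% of all protein-coding genes and 28.0% of those of 10 kb or longer. The 53 annotated transcripts fall into 23 start regions when starts no more than 500 bp apart are joined. Of these, 6 had an IDR summit within 1 kb and 18 had a pooled region. Neighbouring start regions can count the same pooled region, as the inner ones of ftz-f1 do. No share over all annotated starts was computed, and many pooled regions are weak, so these counts cannot be read as particular to the members. Of the 25 summits, 17 were over 2 kb and 12 over 5 kb from every start of their own gene. Within 500 bp of any annotated start there were 6 of 25 summits (24%), against 47.3% of all IDR summits on the arms. The members are long, and no such share was computed for summits in genes of 10 kb or longer. Distance from starts thus cannot be read as a trait of these genes. By place in the member gene, 4 were promoter summits, 19 intronic, 1 in a 5′ UTR and 1 in a 3′ UTR. Beyond the 2 kb limit the next IDR summits lay 2315 bp outside Eip74EF with a signal of 133, 2892 bp outside Kr-h1 with a signal of 104, and 4543 bp outside br with a signal of 193.

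The 25 summits were spread over the whole IDR list. Their ranks ran between 48 and 3104, 11 were in the stronger 50% of the IDR list, and their median signal was 124, against 135 for all IDR summits on the arms. The deposited −log10 q-values ran between 1.82 and 2.11, and 12 of the 25 summits shared the value 2.11, which was also the median of the whole list. An overlapping region was present in both full replicate lists for 23 of the 25 summits, against 96.6% of all IDR summits, and the other two, in br and Hr39, had none in replicate 3. Among the strongest 3312 regions of both replicates were 12 of the 25, against 58.5% of all IDR summits. Another 12 were among the strongest of replicate 4 alone and 1 among those of replicate 3 alone, the Eip74EF summit 6363 bp downstream of the inner start. With the lists of single replicates, 6 of the 9 members had a summit among the strongest of replicate 3, beside 46.3% of the long genes, and 8 of 9 among the strongest of replicate 4, beside 45.1%. Eip74EF and Hr4 led in both, with 8 and 6 summits in replicate 3 and 10 and 8 in replicate 4.

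**Figure D2:**
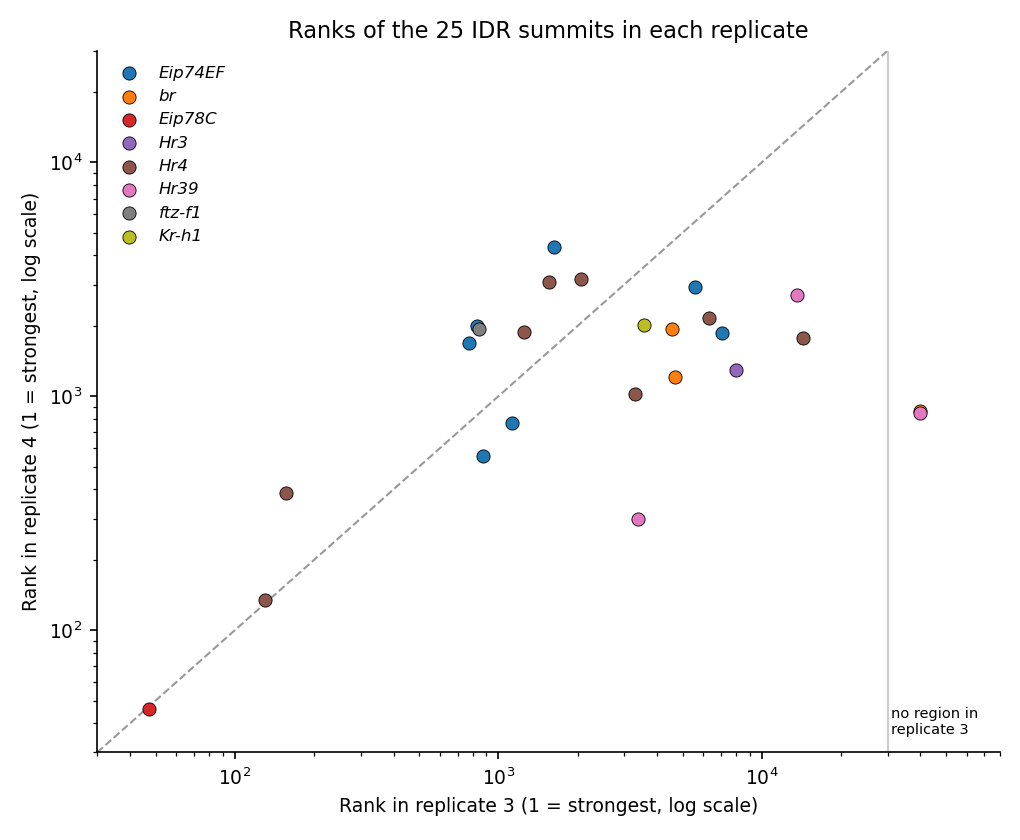
Rank of each of the 25 IDR summits in replicate 3 (horizontal) and in replicate 4 (vertical), both on log axes with 1 as the strongest, coloured by gene. Points on the dashed line rank alike, and the points right of the grey line, from br and Hr39, have no overlapping region in replicate 3. The strongest summits of Eip78C and Hr4 lie close to the line; 16 of the 25 ranked stronger in replicate 4 and 9 in replicate 3.

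**Figure D3:**
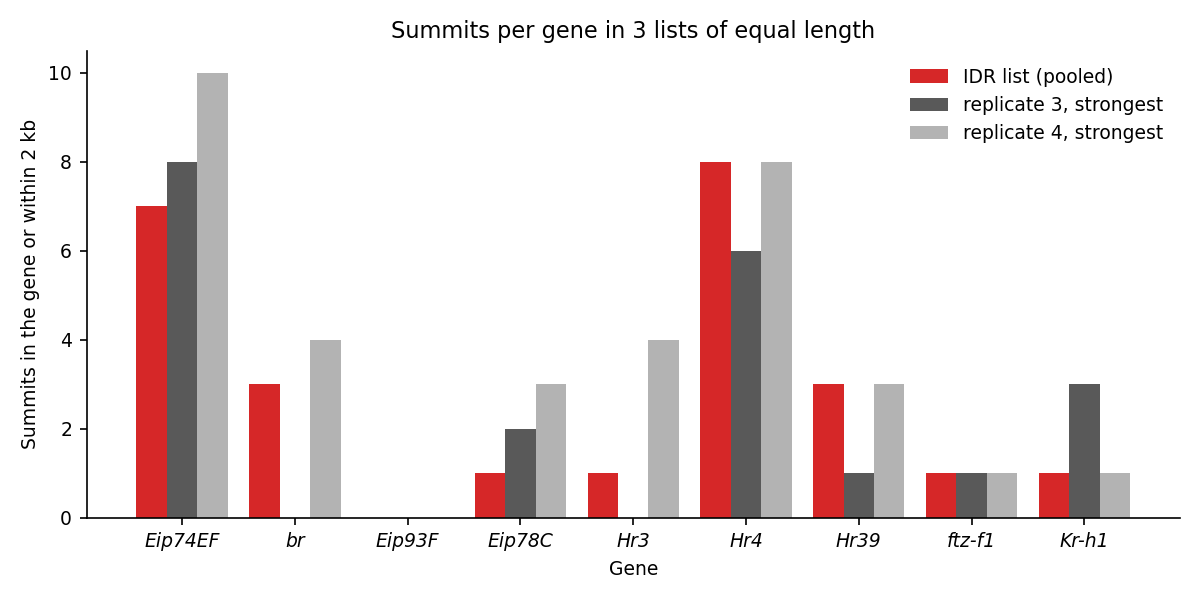
Number of summits in each gene or within 2 kb of it (bars, from 0) in 3 lists of 3312 regions each: the IDR list, the strongest regions of replicate 3 and those of replicate 4. Eip74EF and Hr4 are highest in all 3, Eip93F has none in any, and br and Hr3 have none in replicate 3 and 4 each in replicate 4.

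The replicates differed by base composition. The 25 windows had a mean GC content of 37.5% ± 10.7 (SD over summits), with a range of 22.8% to 57.4%. Windows 500 bp to either side had 42.5% ± 7.53. The left and right window of each summit were averaged before this SD was taken, so it is not the spread of single windows. Over all IDR summits the mean was 34.7% ± 8.86, with 42.9% in their flanks. Of the 11 member summits with a GC content under 35%, 7 ranked stronger in replicate 3 and 4 in replicate 4. Of the 14 at or above 35%, 2 ranked stronger in replicate 3 and 12 in replicate 4. Over all IDR summits, 59.0% of 1833 under 35% GC and 41.1% of 1459 at or above it ranked stronger in replicate 3. The Spearman correlation between GC content and the log2 ratio of the rank in replicate 3 to that in replicate 4 was 0.67 over the 23 member summits with both ranks (Pearson 0.67), and 0.28 over 3181 IDR summits (Pearson 0.33); these points share 2 libraries and are given as a description. The strongest 3312 regions differed likewise as whole lists, with a mean GC content of 33.0% ± 8.12 in replicate 3 and 37.0% ± 9.66 in replicate 4. The summits of br, Hr3 and Hr39, all lower in replicate 3 or without an overlapping region there, had a GC content of at least 41.6%, except the br summit by dor, which had 31.7%. These values are for windows at the summits of the IDR list and change with the summit's position. At the replicate 4 summit of the br region by dor, the window had 44.6%. For the Eip74EF region 7727 bp inside the outer start, it had 19.8% there, against 46.5% at the IDR summit. The 35% split and the correlations were not recomputed at the replicate summits. The part of GC content in the replicate difference was not tested.

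**Figure D4:**
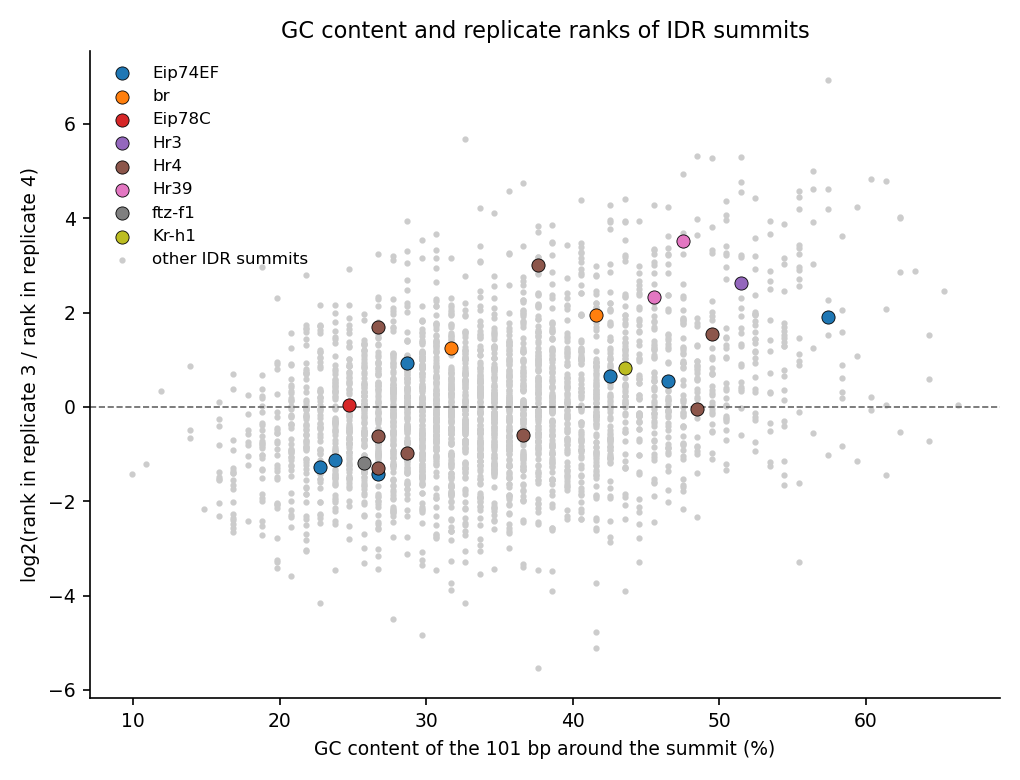
GC content of the 101 bp around each IDR summit (horizontal, %) against the log2 ratio of its rank in replicate 3 to its rank in replicate 4 (vertical; above 0, stronger in replicate 4), for 23 member summits coloured by gene and for the other IDR summits with both ranks in grey. The summits of Hr39 and Hr3 lie above 0, and 7 of the 11 member summits under 35% lie below it.

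An E-box was present in 11 of the 25 windows (44%), against 35.4% of all IDR windows, and in 19 of the 50 windows 500 bp to either side of member summits (38%). Among each replicate's strongest 3312 regions, it was in 9 of the 21 member windows of replicate 3 and in 9 of the 34 of replicate 4, a lower share. The E-box share over all strongest regions of each replicate was not computed, so this difference cannot be read as particular to the members. Among the 25 windows, those with an E-box were at Eip74EF, br, Hr3, Hr4, ftz-f1 and Kr-h1. Of its classes, CATATG was in 3 windows, at Hr4 and Kr-h1, against 3.95% of all IDR windows and 4 of the 50 flanks. CAGCTG was in 1 window, at Hr3, against 4.80% of all. CACCTG was in 1, at Eip74EF, against 1.61%, and CATGTG in 1, at br, against 4.13%. CACGTG was in none, against 0.759% of all. The forkhead motif TGTTTAC was in 1 window, an intronic summit of Hr4 1890 bp from the start, against 3.07% of all IDR windows and 2 of the 50 flanks.

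GAGAG was in 5 of the 25 windows, all 3 of Hr39, the Eip74EF promoter and Hr3, against 15.2% of all. CGATA was in 1, at Hr4, against 16.2% of all, and AGGTCA in 1 against 1.37%. CAAGGTC, the longer site that Ftz-f1 and Hr39 bind, and TGACGT were in none, against 0.213% of all IDR windows for CAAGGTC and 66 of 3292 for TGACGT. All motifs were read on both strands. CAAGGTC and AGGTCA overlap in the letters AGGTC, and the E-box classes are contained in CANNTG.

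Other genes of the hormone's pathway were read from lists, whose counts stand beside 22.9% of all protein-coding genes with an IDR summit and 45.3% of those of 10 kb or longer, and, within 1 kb of a start, beside 14.4% and 28.0%. Of the receptor and its coregulators, 4 of 5 had an IDR summit: the receptor gene EcR (best signal 244), its partner usp (125), the coactivator gene tai (313) and the corepressor gene Smr (145), while trr had none. Of the other early response genes, 9 of 11 had one, with best signals of 774 at Eip75B, 297 at E23, 268 at ImpL2, 234 at Eip63E, 222 at ImpE2 and 203 at Eip63F-1. All 6 of the other hormone-induced transcription factor genes had one, at 319 for vri, 263 for Blimp-1, 205 for Sox14, 203 for crol, 158 for chinmo and 125 for crc. Both genes of the juvenile hormone receptor, which induces Kr-h1, had one, at 460 for Met and 119 for gce.

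The other nuclear receptor genes had a summit in 9 of 16 cases, among them knrl (225), Hr78 (203) and Hnf4 (169); EcR, usp and Eip75B are counted in this list too. Of the genes for ecdysone synthesis and turnover, 2 of 9 had one, shd (128), whose enzyme makes the active hormone, and sro (100.03). None of the 10 late genes listed from the Eig71E cluster had a summit. The lists differ in gene length, with a median of 58.4 kb for the receptor and coregulators, 18.1 kb for the hormone-induced factors, 13.25 kb for the juvenile hormone receptor, 12.1 kb for the early response genes, 8.5 kb for the nuclear receptors, 2.7 kb for synthesis and turnover and 0.6 kb for the late genes. Shares were 100% at the medians of 18.1 and 13.25 kb, 81.8% at 12.1 kb and 56.25% at 8.5 kb. They were 22.2% at 2.7 kb and 0% at 0.6 kb, and 80% at the longest median of 58.4 kb. The part of length in these counts was not tested. With each gene counted once, 29 of the 56 (51.8%) had a summit and 19 had one within 1 kb of a start.

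For the 4 members with 3 or more summits, the genes outside the set with the most similar counts were picked from those of like length, so that their closeness is fixed by the choice. The measure was the summed difference in the number of summits in the 3 lists of 3312 regions, and the candidates numbered 163 for Eip74EF, 147 for Hr4, 94 for br and 393 for Hr39. Nearest to Eip74EF were ush, with 8, 7 and 9 summits in the IDR list, replicate 3 and replicate 4 (summed difference 3), and psq, with 8, 7 and 8 (4). Nearest to Hr4 were rdx, with 8, 6 and 7, and psq again (1 each). Nearest to br were osp and kuz, each with 3, 2 and 3 (3 each). Hr39 had the same 3 counts as sd (0), and ttk followed (1).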

How the data were processed

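ChIP-seq of Sage-GFP was read from 4 deposited dm6 region lists: replicate 3, replicate 4, pooled and IDR. The signal and the −log10 q-value of each region are the authors' own, as deposited. They were made from the replicate alignments and a control alignment, per the deposited text, and the control library was not analysed here. The aligner and the peak caller, like the scaling of the signal, were not given in the sources used here. No p-value was computed, as there is 1 group. Genes came from Ensembl release 115 and sequence from the RefSeq Release 6 genome. A region belongs to a gene when its summit lies in it or within 2 kb. Replicate regions were matched to IDR regions by an overlap of at least 1 bp. Counts of members and of pathway lists are given with the share over all protein-coding genes or over those of 10 kb or longer. Motifs and GC content were read in 101 bp windows. Alternatives changed flanks, distances, windows, overlap and lists. The code was tested on simulated regions and run with Python 3.11.15, numpy 2.4.6, pandas 2.3.3 and scipy 1.17.1. The members, pathway lists and motifs were chosen with earlier results of these data known. All 9 members are named; of each pathway list, at most the 6 genes with the strongest summits; as genes alike, the 2 nearest per member among genes within 20% of its length; and any gene inside or overlapping a member with a start nearer to a summit than the member's own. The genes dor and l(2)k14505, outside the members, were named after their values were seen. The labels number the samples as biological replicates and do not say whether they came from separate collections of larvae. The lists on dm3 were not used.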

Additional observations from a re-analysis of the deposited data

How the results depend on the processing

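Of 39 alternatives to the counts and means over the set, 28 stayed close to the value reported (counts within 1.5 times, mean GC content within the SD of 7.25 percentage points between replicates) and 11 moved. That SD came from the single-replicate means of 32.5% and 42.8%. For these means, staying close to the 37.5% reported was largely fixed in advance and shows no stability. Counts were compared as numbers, whatever the number of summits behind them, so the tally does not measure how stable the shares were. Without replicate 3, the E-box windows (9 of 34 beside 11 of 25) thus stayed close. The summits within 500 bp of any start (10 of 34 beside 6 of 25) moved. In the stronger 50% of the IDR list, 5 members had a summit (8 reported) and there were 11 summits (25 reported), 3 members had one within 1 kb of a start (5 reported), 2 summits lay within 500 bp of any start (6 reported) and 5 windows held an E-box (11 reported); fewer regions are counted there by construction. With starts taken at 500 bp, 3 members had a summit near one, and at 200 bp 2 summits lay near any start. E-box windows numbered 17 with 100 bp and 5 with 25 bp on either side. With the strongest regions of 1 replicate in place of the IDR list, the summits within 500 bp of any start ranged from 3 of 21 (without replicate 4) to 10 of 34 (without replicate 3), and the cause was not tested. Between these lists, the members with a summit ranged from 6 to 8, all summits from 21 to 34, members with a summit near a start from 4 to 7, GC content from 32.5% to 42.8%, and pathway genes from 26 to 28; E-box windows were 9 of 21 without replicate 4 and 9 of 34 without replicate 3, beside the 11 of 25 reported. Of 63 alternatives for single genes, 49 stayed close and 14 moved, and of 55 for single motifs, 31 and 24. No paired analysis was possible because there is 1 group. Unknown depth limits what a missing region shows.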

Other observations

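Single replicates held strong regions at these genes that the IDR list lacks, 7 of the 21 member regions among the strongest 3312 of replicate 3 and 9 of the 34 of replicate 4. The share of such regions over all 3312 strongest of each replicate was not computed, so these counts cannot be read as particular to the members. The replicate 3 regions that the IDR list lacks were at Eip74EF, Eip78C, Hr39 and, for 3 of the 7, Kr-h1. At Kr-h1 they lay 702 bp upstream of the outer start (rank 1274), 1173 bp inside it (rank 3161, with no overlapping region in replicate 4) and 3510 bp inside it (rank 2934). Those of replicate 4 included the main start of br (300 bp upstream, rank 2238), the inner start of Eip78C (111 bp upstream, rank 2575) and a region 1061 bp upstream of the outer start of Hr3 (rank 2291). At this start of Eip78C replicate 3 had no overlapping region, and its best region within 1 kb ranked 7548. The replicate 4 regions at br and Eip78C had a GC content of 60.4% and 50.5%, and that of replicate 3 at the outer start of Kr-h1 had 32.7%. These genes were singled out after their values were seen.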
